A study of Mus musculus with 6 samples.

Results

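Genes for endoplasmic reticulum (ER) chaperones and for the unfolded protein response were compared between db/db mice and their db/m littermates in isolated islets. The genes were chosen by name and by role, and 37 of the 44713 genes in the table of counts belong to this group. Of the 37 genes, 11 code for chaperones and their partners, 6 for enzymes of disulfide bond formation, 8 for ER-associated degradation (ERAD), 4 for the stress sensors and the transcription factor XBP1, and 8 for the arm below the kinase PERK and the transcription factor ATF4. The counts of 36 of them passed the filter on low counts, which left 12760 genes of the table. The remaining gene, Manf, which codes for a small protein of the ER released under stress, had 7, 2 and 0 counts in db/db mice, and 12, 1 and 0 in db/m mice, and was not tested.

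Total RNA depleted of ribosomal RNA was sequenced from isolated islets of 3 male db/db mice and 3 male db/m littermates, all 10 weeks old. The db/db mice carry 2 mutated copies of the leptin receptor gene Lepr (Lepr-/- in the labels), which removes the signalling form of the receptor from the whole animal and leads to obesity and diabetes. The db/m mice carry 1 mutated copy, although the labels name their genotype wild type. The background is BKS in the methods of the study and C57BL/6 in the labels, and no agent is named for either group. Each library held between 15641797 and 20614531 counts, so that 3 counts corresponded to 0.146 to 0.192 CPM (counts scaled to a library of 1000000). All CPM levels given for genes were further scaled by the TMM factors of edgeR, which correct for RNA composition. The mice are described as separate animals of each group, with 1 library from each.

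The labelled cell type was checked first. Genes of pancreatic acinar cells, which secrete digestive enzymes and are not islet cells, took 71.4% to 77.8% of the counts in the db/db libraries and 54.0% to 69.6% in the db/m libraries (31 marker genes, of which 0 were at 0 in all mice). Ins1 and Ins2, the insulin genes that define β cells, took 0.121% to 0.502% in db/db and 0.605% to 3.75% in db/m mice. Log2 fold changes were above 0 for 30 of the 31 acinar markers (median 0.71) and below 0 for 20 of 20 β-cell markers (median -2.77). The libraries were therefore mixtures of exocrine and endocrine RNA, in proportions that moved with the genotype. In such bulk samples, fewer cells of a type and less RNA per cell cannot be told apart, and the part of the cell mixture in the values below was not tested beyond a fit that took the acinar marker score as a covariate. Unlike the shares of counts, this score overlapped between the groups, with 13.43, 12.544 and 12.79 in db/db and 11.19, 12.30 and 12.549 in db/m mice.

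The ER folds and modifies the proteins that a cell secretes, and both β cells and acinar cells depend heavily on it. When unfolded proteins accumulate, 3 sensors in the ER membrane respond. IRE1α (Ern1) splices the mRNA of Xbp1, ATF6 travels to the Golgi and is cut to a transcription factor, and PERK (Eif2ak3) phosphorylates the initiation factor eIF2α, which slows translation while the mRNA of Atf4 is translated more. XBP1 and cleaved ATF6 raise the genes for chaperones and ERAD, and ATF4 raises genes for amino acid supply, redox balance and, through CHOP (Ddit3), cell death. In islets the response is known both as a support of insulin production and, when it persists, as a route to β-cell loss in diabetes.

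ATF6 and XBP1 act on chaperone genes through the ER stress response element (ERSE), and the promoters were searched for it because it joins genes that are induced together. Promoters here ran from 250 bases before to 50 bases after the RefSeq gene start (GRCm38.p6), and 33 of the 37 genes had an entry. ERSE was spelled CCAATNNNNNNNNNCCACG and sought on both strands. It was found in 10 of the 33 promoters, against 0.137% of the promoters of 27025 genes. These were 6 of the 9 chaperone promoters (Hspa5, Hsp90b1, Calr, Canx, Dnajc3 and Creld2), 2 of 6 in disulfide formation (Pdia6 and Ero1lb) and 2 of 7 in ERAD (Syvn1 and Derl3), with 2 matches in Hsp90b1. No match was found in the 3 sensor promoters or the 8 promoters of the PERK-ATF4 arm. The shorter ERSE-II, spelled ATTGGNCCACG, was found in Herpud1 and Dnajb11, against 0.044% of all promoters. No match overlapped with a match of another motif. A match of letters is a description and not a binding site. The genes were chosen for their role in this response, so the shares of motif matches here and below are no test either. The matches in 5 genes are written in the direction of the motif, with the fixed letters in capitals, to show how the spacer differs while both ends are the same. That of Hspa5 lies at chr2:34772025-34772043 (+ strand), that of Creld2 at chr15:88819520-88819538 (- strand), that of Syvn1 at chr19:6046532-6046550 (+ strand), that of Calr at chr8:84847075-84847093 (+ strand), and that of Herpud1, an ERSE-II, at chr8:94386377-94386387 (+ strand).
Hspa5: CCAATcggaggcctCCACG
Creld2: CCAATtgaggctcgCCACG
Syvn1: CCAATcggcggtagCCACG
Calr: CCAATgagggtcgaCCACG
Herpud1: ATTGGgCCACG

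The 150 bases before the RefSeq start of Hspa5 (chr2:34771940-34772089, + strand) are given with the ERSE in capitals, since Hspa5 is the classical target gene of the response. The Hspa5 gene model of GENCODE starts within this stretch, ahead of the element.
Hspa5 upstream: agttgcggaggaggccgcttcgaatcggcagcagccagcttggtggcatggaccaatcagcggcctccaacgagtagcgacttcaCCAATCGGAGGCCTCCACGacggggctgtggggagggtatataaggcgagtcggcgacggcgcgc

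Matches to TGATGNAA, the letters of the element bound by ATF4 with its partners (CARE), were found in Asns, Chac1, Trib3 and Herpud1, which is 4 of 33 promoters against 4.51% of all promoters. The element of XBP1 spelled TGACGTGG was found in 0 of the 33 and in 0.714% of all. The 3 matches within the PERK-ATF4 arm lay at chr6:7693225-7693232 (- strand), chr2:119351049-119351056 (- strand) and chr2:152344039-152344046 (+ strand), and differ in a single spacer letter.
Asns: TGATGaAA
Chac1: TGATGcAA
Trib3: TGATGtAA

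No gene of the response passed the threshold when the genotypes were compared: edgeR's quasi-likelihood test gave an adjusted p under 0.05 to 0 of 36 genes, against 0.619% of all tested genes. DESeq2 called 2 of them, Ppp1r15a and Ddit3, and edgeR without the filter on low counts called 3, the same genes and Trib3. Before adjustment, 4 genes had a p under 0.05, or 11.1% of the 36, where the share over all tested genes was 14.9%. Xbp1 and Trib3 were higher in db/db islets (5.56% of the genes, against 5.04% of all tested genes), and Ppp1r15a and Ddit3 were lower (5.56% against 9.89%). The levels of the groups did not overlap for Xbp1 and Edem2, which were higher in every db/db mouse (5.56% against 8.55%), and for Ddit3 and Ppp1r15a, which were lower (5.56% against 12.5%). These shares were near or below those of the table as a whole. The median log2 fold change was -0.06 over the 36 genes and -0.00093 over all tested genes.

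**Figure D1:**
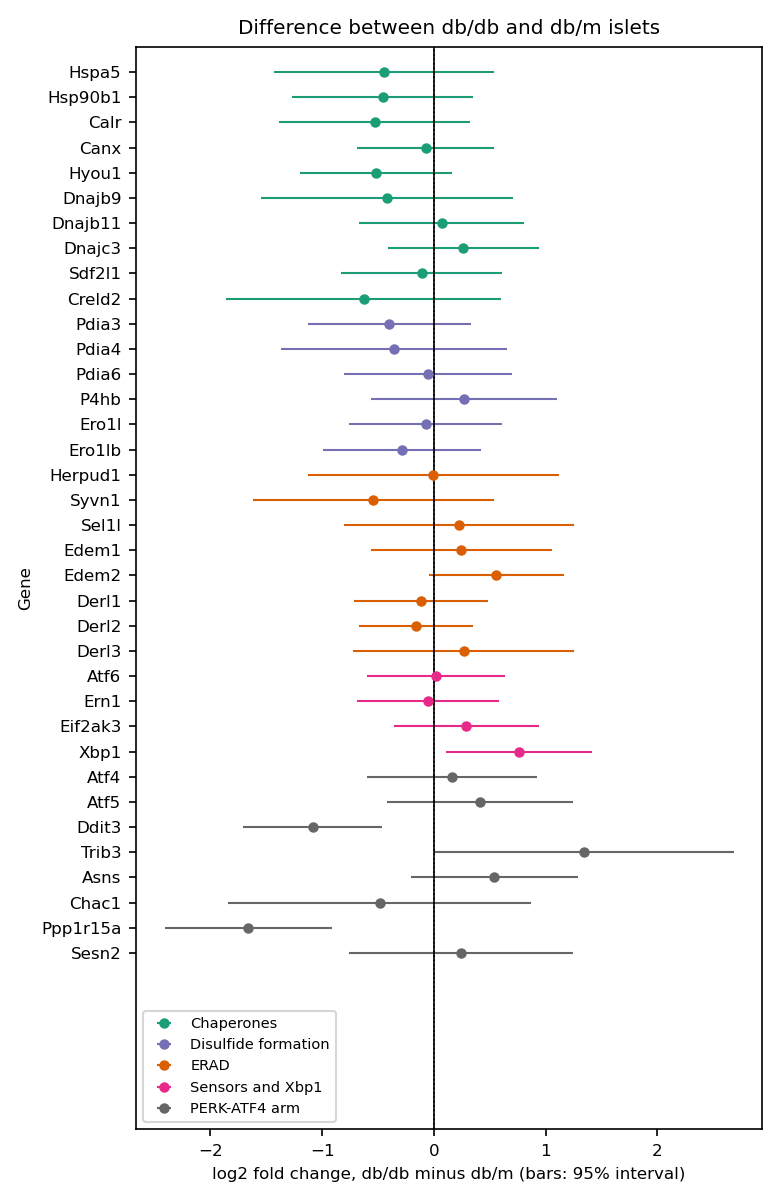
Log2 fold change of each of the 36 tested genes, db/db minus db/m, on the horizontal axis, with genes as rows and the roles in colours. Points are edgeR estimates from 3 mice per group and bars their 95% intervals, the solid line marks 0 and the dotted line, which lies on it, the median of all tested genes. The intervals of Xbp1, Trib3, Ddit3 and Ppp1r15a leave out 0, and all others span it.

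The chaperones bind unfolded chains in the ER lumen. Hspa5 (BiP), the master chaperone that also holds the sensors inactive, lies at chr2:34771970-34777547 (+ strand, GRCm38) and had 994, 532 and 559 CPM in db/db replicates 1, 2 and 3, and 553, 801 and 1481 CPM in db/m replicates 1, 2 and 3. The groups overlapped, and db/m replicate 3 stood above every other mouse. The log2 fold change of Hspa5 was -0.44 with a 95% interval of -1.43 to 0.54 (adjusted p = 0.663, edgeR). From the lowest to the highest, the db/m mice alone differed by 2.68-fold.

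Of the 10 tested chaperones, 8 had a log2 fold change below 0, and none of the 10 had an unadjusted p under 0.05 (0 of 10, edgeR). The class median was -0.43 and the values lay between -0.63 and 0.26. Creld2, a stress-induced protein of the ER lumen named here after its values were seen, had the lowest value. It had 97.6, 46.8 and 37.7 CPM in db/db mice, and 50.2, 51.8 and 179 CPM in db/m mice. Again the highest mouse was db/m replicate 3 and the groups overlapped. Hsp90b1 (GRP94), a chaperone of secreted and membrane proteins, had a log2 fold change of -0.46, and the lectin chaperones Calr and Canx, which hold glycoproteins, had -0.53 and -0.07. Hyou1, which exchanges the nucleotide of BiP, had -0.52. Among the J-domain partners of BiP, the value was -0.42 for Dnajb9, 0.07 for Dnajb11 and 0.26 for Dnajc3, and it was -0.11 for Sdf2l1, which works with Dnajb11. The direction of this class rested on 1 mouse: when db/m replicate 3 was left out, the median of the 10 chaperones was 0.12. In the fit with the acinar score as a covariate it was -0.70, and 5 of the 10 genes were lower before adjustment at the threshold of 0.05. The share of all tested genes at this threshold was not computed for that fit, so the count is not read as particular to the chaperones. Unadjusted p from edgeR in this fit were 0.00159 for Hspa5 (log2 fold change -1.27), 0.00207 for Dnajb9 (-1.56), 0.00528 for Hsp90b1 (-1.04), 0.00807 for Creld2 (-1.63) and 0.0375 for Calr (-0.95), with an adjusted p of 0.135 to 0.421. Hsp90b1 shares 10.3% of its exonic bases with 1810014B01Rik on the other strand, and its counts cannot be parted from those of that gene where the strand was not used.

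Oxidative folding is carried out by protein disulfide isomerases and by the oxidases that recharge them. P4hb (PDI) had the highest level per exon length of all 36 genes, with 390.0 CPM per kb of exon in db/db and 324 in db/m mice. The log2 fold changes were 0.27 for P4hb, -0.40 for Pdia3, -0.36 for Pdia4 and -0.05 for Pdia6. Of the 6 genes, 5 were below 0, with a median of -0.18, and 0 had an unadjusted p under 0.05 (edgeR).

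The oxidase genes Ero1l and Ero1lb, now named Ero1a and Ero1b, were read side by side because the second is the form typical of cells with heavy secretion such as β cells and acinar cells. Ero1lb had 739, 515 and 564 CPM in db/db mice, and 756, 570 and 887 CPM in db/m mice, giving -0.29 as log2 fold change (95% interval -0.99 to 0.42). Ero1l had 24.1, 17.9 and 15.6 CPM in db/db and 16.4, 15.3 and 28.8 CPM in db/m mice, giving -0.07 (95% interval -0.76 to 0.61). Both overlapped between the groups, and per exon length Ero1lb was the more abundant form in each group, with 91.1 against 3.63 CPM per kb in db/db and 111 against 3.81 CPM per kb in db/m mice. Of the 50-base stretches of Ero1lb, 9.39% also occur in other genes, so a part of its counts is uncertain.

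ERAD moves misfolded proteins back to the cytosol, where they are broken down. Its ubiquitin ligase Syvn1 (HRD1) had a log2 fold change of -0.54, and the adaptor Sel1l, which steadies it, had 0.22. Herpud1, which gathers the complex and is strongly induced by ER stress, had -0.0041, with 920, 359.7 and 585 CPM in db/db and 263, 685 and 921 CPM in db/m mice. The interval of Herpud1 ran from -1.13 to 1.12. In the fit with the acinar score, Herpud1 had a log2 fold change of -1.13 (unadjusted p = 0.00113, adjusted p = 0.119, edgeR) and Syvn1 one of -1.56 (unadjusted p = 7.2e-04, adjusted p = 0.0990, edgeR). The derlins, which form part of the exit channel, had -0.11 (Derl1), -0.16 (Derl2) and 0.27 (Derl3).

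Edem2, a mannosidase that trims glycoproteins for disposal, was the only gene of the ERAD class whose groups did not overlap, and it is given after its values were seen. It had 257, 262 and 245 CPM in db/db mice, and 142, 156 and 219.8 CPM in db/m mice. Every db/db mouse stood above every db/m mouse, and the db/db mice differed by only 1.07-fold among themselves. The log2 fold change of Edem2 was 0.56 (standard error 0.27, adjusted p = 0.368, edgeR). It became 0.34 in the fit with the acinar score and 0.027 with library size alone, with an unadjusted p of 0.216 and 0.930 from edgeR. With library size alone the median of all tested genes was -0.59, so that the value of 0.027 is read against that shift. Its relative Edem1 had 0.24 and overlapping groups. The class median was 0.11, with 4 genes on either side of 0 and 0 at an unadjusted p under 0.05 (edgeR). This median turned to -0.34 in the fit with the acinar score and to -0.39 with library size alone, the latter above the median of all tested genes in that fit.

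The genes for the sensors themselves lay close together in both groups. Ern1 had 56.8, 73.9 and 88.6 CPM in db/db and 63.4, 100.4 and 63.3 CPM in db/m mice, and -0.05 as log2 fold change (95% interval -0.69 to 0.59). Atf6 had 129, 114 and 109 CPM in db/db and 95.1, 96.0 and 156 CPM in db/m mice, and 0.02 as log2 fold change (95% interval -0.60 to 0.64). For Eif2ak3 the levels were 154, 136 and 116 CPM in db/db and 76.5, 113 and 142 CPM in db/m mice, and 0.29 as log2 fold change (95% interval -0.36 to 0.94). All 3 overlapped between the groups. The activity of these proteins is set by oligomerisation, cleavage and phosphorylation, which counts of mRNA do not measure.

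Xbp1, whose product is the transcription factor below IRE1α, lies at chr11:5520659-5525893 (+ strand, GRCm38) and shares no 50-base stretch with another gene. It had 437, 310.3 and 282 CPM in db/db mice, and 168, 199 and 239 CPM in db/m mice. The lowest db/db mouse was above the highest db/m mouse. Means were 343 ± 82.8 CPM (SD, n = 3) for db/db and 202 ± 35.1 CPM (SD, n = 3) for db/m mice, a 1.70-fold difference. On the log2 scale the change was 0.76 (standard error 0.29, 95% interval 0.11 to 1.41), with an unadjusted p of 0.0266 and an adjusted p of 0.265 from edgeR. Counts per gene do not part the spliced from the unspliced mRNA of Xbp1. The change became 0.38 in a fit with the acinar score and 0.17 with library size alone, with an unadjusted p of 0.169 and 0.521 from edgeR. With library size alone the median of all tested genes was -0.59, so that the value of 0.17 is read against that shift. Without db/db replicate 1 the unadjusted p of Xbp1 was 0.106, without db/m replicate 1 it was 0.0514, and without db/m replicate 2 it was 0.0607 (edgeR).

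Below PERK, the values of Atf4, Ddit3 and Trib3 lay in different directions. Atf4 had 205, 111 and 139 CPM in db/db mice, and 97.8, 120.2 and 188 CPM in db/m mice. The groups overlapped, with a log2 fold change of 0.16 (95% interval -0.59 to 0.92). The protein of Atf4 is raised by translation, so that its mRNA is not a measure of the arm.

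Ddit3 encodes CHOP, the transcription factor that ties prolonged stress to cell death, and lies at chr10:127290774-127296288 (+ strand, GRCm38). The counts were low, with 4.41, 6.93 and 8.06 CPM in db/db and 12.2, 13.8 and 15.1 CPM in db/m mice (55 to 120 reads and 238 to 334 reads). All db/db mice were below all db/m mice. The levels were 6.47 ± 1.87 CPM (SD, n = 3) and 13.7 ± 1.47 CPM (SD, n = 3), a 2.12-fold difference. The log2 fold change of Ddit3 was -1.08 (standard error 0.28), with an unadjusted p of 0.00336 and an adjusted p of 0.114 from edgeR. Of its exonic bases, 3.97% overlap with Mars on the other strand.

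Ppp1r15a encodes GADD34, the phosphatase subunit that removes the phosphate from eIF2α and restores translation, and lies at chr7:45522916-45526268 (- strand, GRCm38). It had the lowest log2 fold change of the 36 genes, with 6.74, 13.0 and 16.4 CPM in db/db mice, and 35.8, 45.4 and 33.2 CPM in db/m mice. No mouse of one group reached into the other. The levels were 12.03 ± 4.89 CPM (SD, n = 3) and 38.1 ± 6.45 CPM (SD, n = 3), a 3.17-fold difference. The log2 fold change of Ppp1r15a was -1.66 (standard error 0.33), with an unadjusted p of 6.8e-04 and an adjusted p of 0.0654 from edgeR. Under DESeq2 its adjusted p was 3.6e-04, and over all alternatives the adjusted p ran from 9.9e-05 to 0.214.

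Ppp1r15a is also known to be induced rapidly by many stimuli, as immediate-early genes are. A list of 19 such genes, of which 18 were tested, had a summed level of 149 to 276 CPM in db/db and 1239 to 2164 CPM in db/m mice. At an adjusted p under 0.05, 10 of the 18 were lower (edgeR), against 62 of all 12760 tested genes. At an unadjusted p under 0.05, 14 of the 18 were lower (edgeR), against 9.89% of all tested genes. Of 14 cytosolic and mitochondrial heat shock genes, 6 were lower at that unadjusted threshold, against the same 9.89%. The part that this difference in rapidly induced genes has in the values of Ppp1r15a and Ddit3 was not tested.

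Trib3, a pseudokinase induced by ATF4 and CHOP, lies at chr2:152337422-152344032 (- strand, GRCm38) and had higher values in db/db islets. It had 7.86, 23.0 and 26.5 CPM in db/db mice, and 8.66, 2.15 and 11.7 CPM in db/m mice. Replicate 1 of the db/db mice fell inside the range of the db/m mice, so that the groups overlapped. The change on the log2 scale was 1.34 (standard error 0.59, 95% interval 0.01 to 2.68), with an unadjusted p of 0.0493 and an adjusted p of 0.333 from edgeR. The db/m mice differed by 5.46-fold among themselves in this gene. Without db/db replicate 2 or 3, or db/m replicate 1 or 2, the unadjusted p of Trib3 was 0.118, 0.154, 0.0557 and 0.0882 (edgeR). With library size alone the change was 0.84, where the median of all tested genes was -0.59.

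The other genes of the arm did not pass an unadjusted p of 0.05 (edgeR). Asns, which makes asparagine, had a log2 fold change of 0.54, Atf5, a transcription factor related to ATF4, had 0.41, and Sesn2, a sensor of leucine, had 0.24. Chac1, which breaks down glutathione, had -0.49 and the widest spread in db/db mice, from 16.2 to 84.4 CPM. The class median was 0.20 with 5 genes above 0, and this value became -0.24 in a fit with the acinar score.

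**Figure D2:**
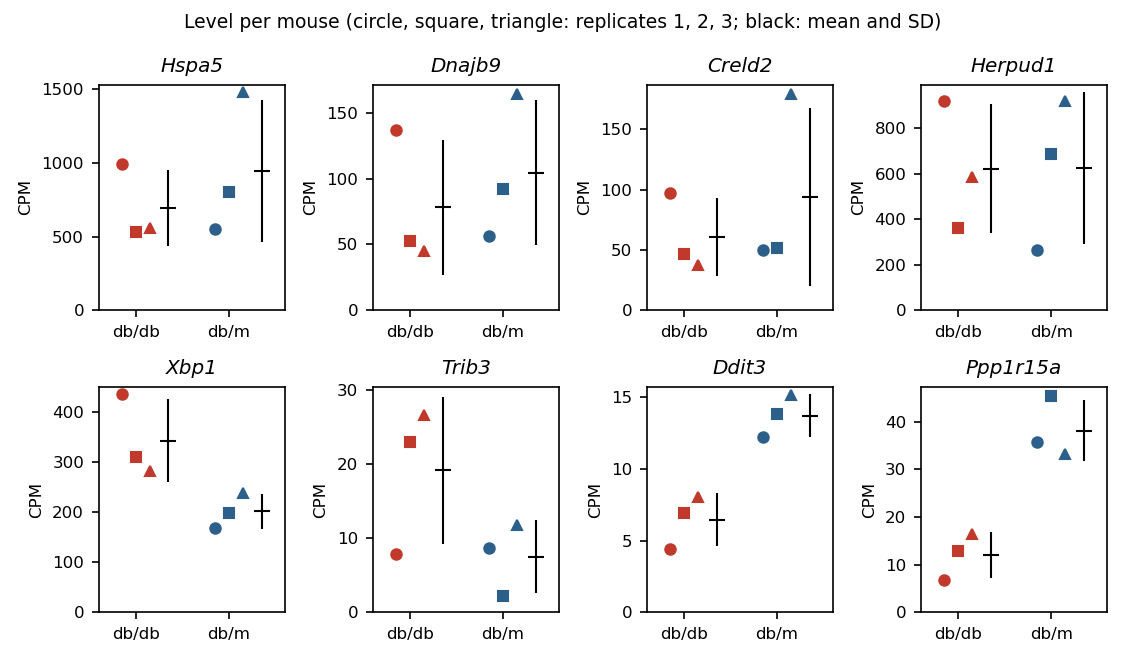
Level in CPM (vertical axis, from 0) of 8 genes in each mouse, with db/db in red and db/m in blue. Circles, squares and triangles are replicates 1, 2 and 3, and the black marks give mean and SD. The groups are apart for Xbp1, Ddit3 and Ppp1r15a, whereas for Hspa5, Dnajb9 and Creld2 the highest point is the triangle of db/m replicate 3 and the groups overlap.

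Ratios of reads between genes of the response within a library do not depend on scaling, and 6 were computed, chosen after the values were seen. Reads on Xbp1 per read on Hspa5 were 0.440, 0.583 and 0.504 in db/db mice, and 0.305, 0.248 and 0.161 in db/m mice. Reads on Ppp1r15a per read on Atf4 were 0.0328, 0.116 and 0.118 in db/db and 0.366, 0.378 and 0.177 in db/m mice. For Ddit3 per read on Atf4 the values were 0.0215, 0.0622 and 0.0581 in db/db and 0.125, 0.115 and 0.0806 in db/m mice. These 3 ratios did not overlap between the groups, which is a description, since they were picked from genes already seen to lie apart. An exact permutation test gave each of the 3 an unadjusted p of 0.1 and an adjusted p of 0.2. The value of 0.1 is the smallest that 3 against 3 mice allow. Any ratio without overlap between the groups receives it, so the test adds nothing to the description. The other ratios (Trib3 to Atf4, Ero1lb to Ero1l and Dnajb9 to Hspa5) overlapped.

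The spread among the db/m mice was the second pattern of these genes. Replicate 3 of the db/m mice had the highest level of the 6 mice for 25 of the 36 genes, where it was highest for 12.4% of all tested genes. This held for 9 of 10 chaperones, 6 of 6 genes of disulfide formation and 7 of 8 of ERAD, but for 1 of 4 sensor genes and 2 of 8 of the PERK-ATF4 arm. It was highest for 9 of the 10 genes with an ERSE match. These 10 genes all belong to the chaperone, disulfide and ERAD classes, and in those classes it was also highest for most genes without a match. The lowest level was in db/m replicate 1 for 11 of the 36 genes and in db/m replicate 2 for 11. Over all tested genes, these mice were lowest for 25.6% and 14.5%, so that the count of replicate 1 was near its share in the whole table.

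From the lowest to the highest db/m mouse the 36 genes differed by a median of 2.14-fold, against 1.55-fold for the 4989 tested genes that averaged at least 10 CPM. In db/db mice the medians were 1.59-fold and 1.43-fold. The widest ranges in db/m mice were those of Trib3 (5.46-fold), Syvn1 (3.71-fold), Creld2 (3.57-fold), Herpud1 (3.51-fold), Derl3 (3.43-fold) and Sel1l (3.42-fold). The acinar markers took 69.6% of the counts in db/m replicate 3, 66.9% in replicate 2 and 54.0% in replicate 1. Without db/m replicate 3, the log2 fold change was higher than before for 34 of the 36 genes, 7 were higher at an unadjusted p under 0.05 and 0 at an adjusted p under 0.05 (edgeR). Over all tested genes, calls at the adjusted threshold rose from 79 to 333 in that fit. Their share at the unadjusted threshold was not computed.

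**Figure D3:**
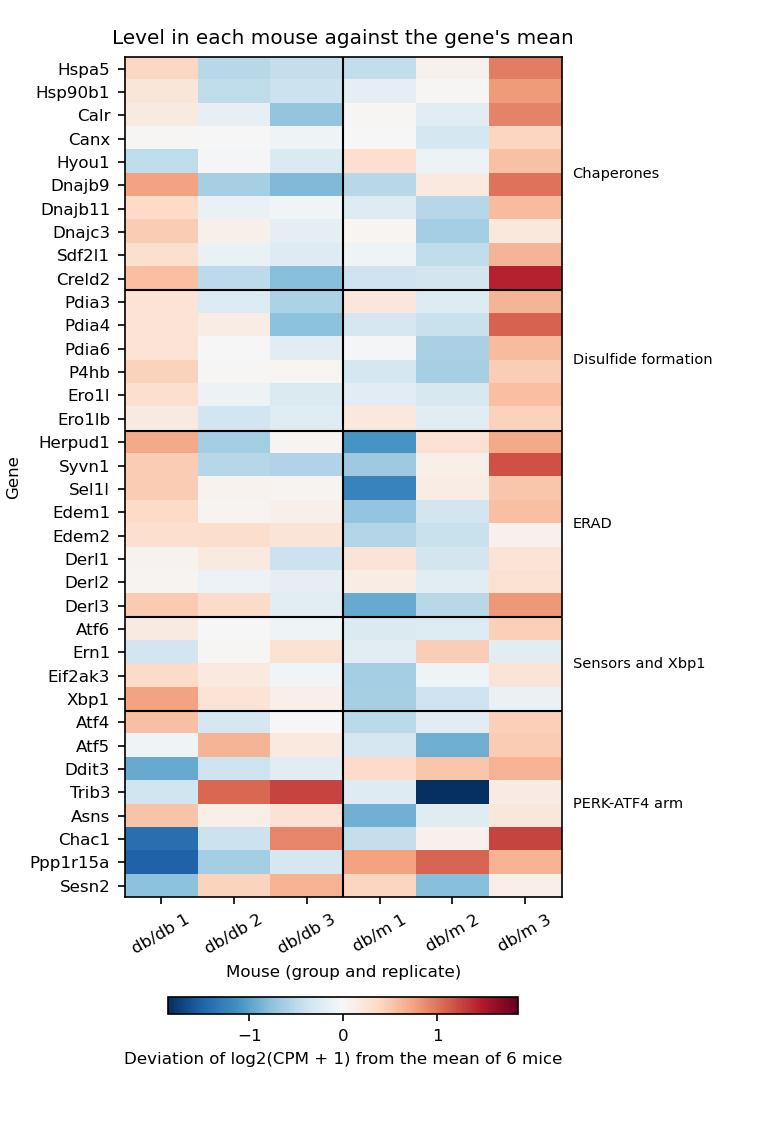
Deviation of log2(CPM + 1) from the mean of all 6 mice for the 36 tested genes (rows, grouped by role) in each mouse (columns), red for higher and blue for lower. The column of db/m replicate 3 is red for most chaperone, disulfide and ERAD genes, the column of db/m replicate 1 is blue for most ERAD genes, and only Xbp1, Edem2, Ddit3 and Ppp1r15a keep the groups apart.

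Levels between genes were compared per kb of exon. Over all mice, P4hb (357 CPM per kb), Herpud1 (267), Hspa5 (194), Sel1l (162) and Hsp90b1 (125) stood at the top, and Dnajc3 (2.63), Derl2 (2.85) and Sesn2 (2.95) at the bottom. The order of neighbours among the 5 at the top was not tested. Ddit3 had 3.77 CPM per kb in db/db and 8.01 in db/m mice, and Ppp1r15a 4.09 and 13.0.

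**Figure D4:**
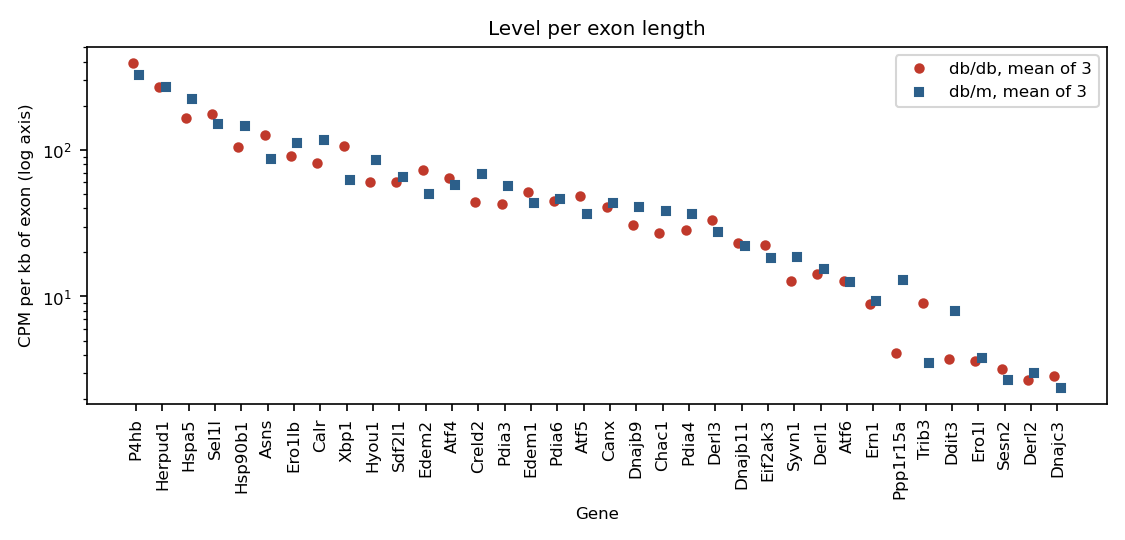
Mean level per kb of exon (log axis, CPM per kb) of the 36 tested genes in order of their mean over all mice, with db/db as red circles and db/m as blue squares (3 mice each). The order runs from P4hb at 357 to Dnajc3 at 2.63 CPM per kb, and the symbols lie widest apart for Ppp1r15a, Trib3 and Ddit3.

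The rest of the secretory pathway and of the ATF4 programme was read from 6 further lists with 188 tested genes. At an adjusted p under 0.05 there were 0 of them, and at an unadjusted p under 0.05 there were 15 higher and 6 lower (edgeR), which is 7.98% and 3.19% against 5.04% and 9.89% of all tested genes. These counts moved with single mice and with the acinar markers: 47 were higher without db/m replicate 3, 6 without db/db replicate 1 or db/m replicate 1, 8 without db/db replicate 3, 9 without db/m replicate 2, and 3 in a fit with the acinar score. The share of all tested genes was not computed for these other fits. Of 41 tested targets of ATF4 outside the 37 genes, 36 had a log2 fold change above 0, with a median of 0.34. Over all tested genes, 6371 of 12760 were above 0. At an unadjusted p under 0.05, 7 of the 41 were higher and 1 lower (17.1% and 2.44%, edgeR), against the same 5.04% and 9.89%. Their median deviations of log2(CPM + 1) from the 6-mouse mean were 0.11, 0.09 and 0.33 in db/db and -0.48, -0.39 and 0.26 in db/m mice. Replicate 3 of the db/m mice thus lay above db/db replicates 1 and 2. Nupr1, a stress-induced chromatin protein, had 1020.3, 1061 and 1032 CPM in db/db mice, and 126, 341 and 301 CPM in db/m mice, with no overlap and a log2 fold change of 2.02 (adjusted p = 0.0654, edgeR). Pck2, which makes phosphoenolpyruvate in mitochondria, had 1.05, and Eif4ebp1, which restrains translation, had 0.90. Ddit4, an inhibitor of mTORC1, was the gene lower at this threshold, at -1.12.

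Among 28 other ERAD genes, 4 were higher, including Aup1 (0.73), Erlec1 (0.67) and Tmub1 (0.67), and 1 was lower, Selk (-0.57), all at an unadjusted p under 0.05 (edgeR). Of 25 other regulators, the membrane-bound transcription factors Creb3 (0.84) and Creb3l3 (2.09) and the tRNA ligase subunit Rtcb (0.59), which joins Xbp1 mRNA again after IRE1α has cut it, were higher, and Wfs1 (-0.87) and Creb3l2 (-0.53) were lower. The value of Creb3l3 rests on few reads, with 30, 16 and 19 counts in db/db and 1, 12 and 7 in db/m mice. Of 26 genes of transport between ER and Golgi, Tmed3 was higher (0.61) and Tmed9 lower (-0.82). Of 35 other folding factors only the thioredoxin-like Tmx4 was lower (-0.93), and of 33 genes of protein entry, glycosylation and signal cleavage 0 were past this threshold. The medians of these 5 lists lay between -0.03 for folding factors and 0.22 for ERAD.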

How the data were processed

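The authors trimmed the reads, mapped them to mm10 and deposited raw counts per gene symbol, 1 column per mouse. The aligner is TopHat in the methods of the study and HISAT2 2.0.4 in the submitters' processing notes; the counting program, annotation and use of strand are not given in the sources used here. Counts were analysed with edgeR 4.0.16 in R 4.3.3 (filterByExpr, TMM factors, quasi-likelihood F-test, Benjamini-Hochberg over 12760 genes, threshold 0.05). CPM are scaled by TMM factors, which ran from 0.605 to 1.75. Standard errors were taken as the absolute log2 fold change over the root of F, and 95% intervals come from the same fit. The common biological coefficient of variation was 0.355. P-values set the difference between the groups against the spread between these mice, which was estimated with the help of all tested genes. Floors of 3 counts cover counting error only. The script was tested on simulated data. Lists were described by counts and medians, and no list was tested.

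The 37 genes and all lists were chosen with earlier results of these data known. Values per mouse were set to be given for genes with an unadjusted p under 0.05 and for Xbp1, Atf4, Ddit3, Hspa5, Ero1l, Ero1lb and the sensors. From each further list at most 3 higher and 3 lower genes with the smallest unadjusted p were named. Positions, exon lengths and overlaps were taken from GENCODE (GRCm38) and promoters from RefSeq (GRCm38.p6), by Python 3.11.15, with plots from matplotlib 3.10.9. Alternatives were library size alone, DESeq2 1.42.0, upper-quartile factors, other filters, a table without genes at 1% of a library, a replicate block, a covariate for acinar markers and each mouse left out. Mice with the same number deviated from their group means with correlations of -0.51, -0.15 and -0.32, which gave no sign that the numbers pair the mice. These correlations cannot exclude that mice with the same number shared a step of preparation.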

Additional observations from a re-analysis of the deposited data

How the results depend on the processing

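With 3 mice per group, a common coefficient of variation of 0.355 and acinar RNA in every library, the 95% intervals of most of the genes spanned 0. By share of counts, the mixture of cells and the genotype moved together. Of the 36 tested genes, 11 kept the sign of their log2 fold change in all 14 alternatives, Xbp1, Trib3, Ddit3, Ppp1r15a and Edem2 among them. Ddit3 (-1.59 to -0.87) and Ppp1r15a (-2.17 to -1.37) kept an unadjusted p under 0.05 in 14 of 14, and Xbp1 (0.17 to 0.91) and Trib3 (0.84 to 1.82) in 8 of 14 each.

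Calls at an adjusted p under 0.05 numbered 79 over all tested genes and 0 among the genes of the response. DESeq2 gave 656 and 2, every gene with at least 1 count 888 and 3, library size alone 21 and 0, upper-quartile factors 52 and 0, the replicate number as a block 16 and 0, and the acinar marker score 52 and 0. Leaving out 1 mouse gave 10 (without db/db replicate 2) to 333 (without db/m replicate 3) and 0. At an unadjusted p under 0.05, where 2 genes of the response were higher and 2 lower, library size alone gave 0 and 11, the replicate block 0 and 2, the acinar marker score 1 (Trib3) and 9 (Hspa5, Hsp90b1, Calr, Dnajb9, Creld2, Herpud1, Syvn1, Ddit3 and Ppp1r15a), and leaving out 1 mouse 0 to 7 and 2 to 3. Of the 6 further lists, 15 genes were higher and 6 lower, against 1 and 20 with library size alone, 5 and 3 with the replicate block, 3 and 6 with the acinar marker score, and 6 to 47 and 1 to 9 when 1 mouse was left out. Library size alone moved the median of all genes to -0.59, so its values are best read against that shift. In none of these alternatives was the share of all tested genes at the unadjusted threshold computed. How far the counts at that threshold followed the whole table was therefore not tested.

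Medians with library size alone were -1.004 for chaperones, -0.76 for disulfide formation, -0.39 for ERAD, -0.38 for the sensors with Xbp1 and -0.37 for the PERK-ATF4 arm. With the acinar marker score they were -0.70, -0.48, -0.34, -0.093 and -0.24 in the same order. ERAD, the sensors and the PERK-ATF4 arm thus turned from above to below 0 under both alternatives. With library size alone, however, these classes lay above the median of all tested genes (-0.59), and chaperones and disulfide formation below it. With the acinar marker score every class lay below the median of all tested genes (-0.037). Without 1 mouse they lay between -0.56 and 0.12 for chaperones, -0.35 and 0.30 for disulfide formation, -0.06 and 0.50 for ERAD, 0.017 and 0.42 for the sensors with Xbp1, and 0.05 and 0.41 for the PERK-ATF4 arm. The highest value of each class was the one without db/m replicate 3.

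With library size alone the median of all tested genes was -0.59, and the genes whose sign turned in that fit lay above it. The sign turned for 11 genes with library size alone: Dnajb11 (-0.50), Dnajc3 (-0.39), P4hb (-0.31), Sel1l (-0.23), Edem1 (-0.26), Derl3 (-0.19), Atf6 (-0.53), Eif2ak3 (-0.23), Atf4 (-0.41), Atf5 (-0.076) and Sesn2 (-0.33). With the acinar marker score it turned for 9: Dnajb11 (-0.34), P4hb (-0.10), Sel1l (-0.57), Edem1 (-0.31), Derl3 (-0.38), Atf6 (-0.28), Eif2ak3 (-0.14), Atf4 (-0.46) and Asns (-0.018). Herpud1, close to 0, turned to 0.014 with DESeq2, 0.029 with upper-quartile factors, 0.018 without genes at 1% of a library or more and 0.023 with the replicate block, which also turned Pdia6 to 0.025. When 1 mouse was left out it turned for 19 genes: Hspa5 (-0.79 to 0.047), Canx (-0.20 to 0.16), Dnajb9 (-1.10 to 0.082), Dnajb11 (-0.11 to 0.49), Sdf2l1 (-0.30 to 0.27), Creld2 (-1.15 to 0.26), Pdia4 (-0.58 to 0.33), Pdia6 (-0.27 to 0.32), Ero1l (-0.26 to 0.29), Herpud1 (-0.40 to 0.40), Syvn1 (-0.97 to 0.12), Sel1l (-0.11 to 0.61), Derl1 (-0.26 to 0.050), Derl3 (-0.011 to 0.99), Atf6 (-0.075 to 0.31), Ern1 (-0.20 to 0.23), Atf4 (-0.11 to 0.49), Chac1 (-1.33 to 0.18) and Sesn2 (-0.046 to 0.59). The cause was not tested.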
